A study of Mus musculus with 93 samples.

Results

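Cytosolic ribosomal protein genes encode the proteins of the small (Rps) and large (Rpl and Rplp) subunits of the ribosome. Members were protein coding genes of GENCODE M21 whose symbol starts with Rpl or Rps and a number, or is Rpsa, Rplp0, Rplp1 or Rplp2. The Rps6k kinases and names marked as pseudogenes were left out. Of 86 such genes with a count, 84 reached at least 10 counts in at least 10% of the 93 mice, among 23702 genes that did. They comprised 31 genes of the small subunit, 46 of the large subunit and 7 paralogs or other genes that share the name. Rpl10l, a copy of Rpl10, reached at most 4 counts in any mouse. Rpl39l, a copy of Rpl39, reached 10 counts in 8 mice, with at most 42.

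RNA was sequenced from the left brain hemisphere of 93 mice aged 8 months, of the strains PWK/PhJ (PWK), WSB/EiJ (WSB), C57BL/6J (B6) and CAST/EiJ (CAST). Mice carried the APP/PS1 transgenes, APPswe and PSEN1dE9 of line 85Dbo, driven by the mouse prion protein promoter, or were wild-type (WT) littermates. The transgenes had been crossed from B6 into each of the other strains, so B6 sequence near them can travel with them. There were 12 WT and 10 APP/PS1 mice of B6, 12 and 12 of CAST, 12 and 12 of WSB, and 11 WT and 12 APP/PS1 mice of PWK. Split further by sex, each of 16 groups held 6 mice, except female B6.APP/PS1 with 4 and female WT PWK with 5. Reads counted on genes ranged from 53969802 to 106016200 per mouse, with a median of 66559575. From the library identifiers, 6 barcode runs were inferred, which the sample labels do not state as batches. All B6 libraries lay in runs 4 to 6 (9, 7 and 6 mice), and the other strains shared runs 1 to 3 (24, 24 and 23 mice), so B6 and the library series cannot be told apart.

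The small subunit reads the mRNA and the large subunit joins the amino acids. The acidic stalk of the large subunit, made of Rplp0 with Rplp1 and Rplp2, recruits the elongation factors. Most ribosomal protein mRNAs start with a run of pyrimidines (a TOP sequence) that links their translation to growth signals through mTOR, and brain cells use local ribosomes in axons and dendrites as well as in the cell body.

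Divided by mRNA length, the median level in WT mice was highest for Rplp1, at 355 CPM (counts scaled to the library total) per kb. Rps15, a protein of the small subunit head, followed at 337, Rps29 at 316 and Rpl3, which lies near the peptidyl transferase centre, at 253 CPM per kb. On the same scale, the paralog Rps27l stood at 11.5, Rps27rt, an Rps27 copy, at 0.501, and Rpl3l, the striated muscle paralog of Rpl3, at 0.140 CPM per kb. Rpl24, a core large-subunit protein, was lowest of the usual subunits at 1.04 CPM per kb. It had 23 to 92 counts per mouse, and 484 bases of its exons overlap another annotated gene on the same strand, Gm28037. Ribosomal protein genes have many near-identical processed copies. Of the 84 members, 80 had at least 1 pseudogene with at least 90% identity over at least 50% of its coding sequence, 1029 in all. Their counts are therefore uncertain, as are those of members that overlap other genes.

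A pair of B6 libraries stood apart from their groups. The summed level of the 84 members was 13714 CPM in WT male 5, against 8613 to 9043 CPM in the other 5 male WT B6 mice. In B6.APP/PS1 female 2 it was 12813 CPM, against 8542, 8969 and 9043 CPM in the other 3 females of the group. Both gaps were larger than Dixon's 95% limit for the group, which chance passes in about 1 in 20 groups that were not picked beforehand. These 2 libraries were known from earlier results of these data to stand apart, so passing the limit is not new support. The median member lay 0.64 log2 above the mean of its group in WT male 5 and 0.55 in B6.APP/PS1 female 2. Small-subunit and large-subunit genes moved alike, with medians of 0.67 and 0.62 in WT male 5 and 0.57 and 0.53 in the APP/PS1 female. All 84 members were highest of their group in B6.APP/PS1 female 2, and 83 of 84 in WT male 5. Such counts, here and below, were not made over all genes, and genes of 1 library are not replicates. WT female 5 of B6 had 11294 CPM against 8384 to 9672 CPM in the other 5 mice, and was highest of its group for 81 members, within the limit. Outside B6, CAST WT female 5 had 10077 CPM against at most 8702 CPM in its group, past the limit on the summed level, and was highest for 78 members. Its median respiratory chain gene lay 0.27 log2 above the group. Mitochondrial genes took 2.94% of its counts on genes, against 3.49 to 4.24% in the other CAST mice. Choroid plexus markers summed to 781 CPM, against at most 618, and neuron markers to 4872 CPM, against at least 5062. The part of these measures in its summed level was not tested.

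**Figure D1:**
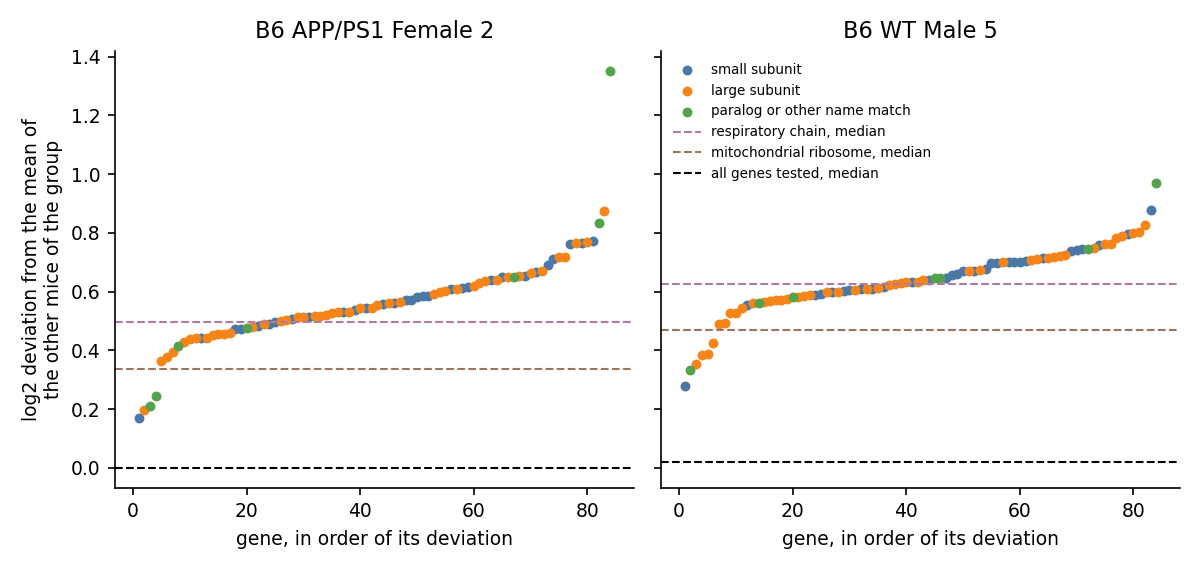
Each point is 1 of the 84 genes, ordered by its deviation, and the vertical axis gives the log2 deviation from the mean of the other mice of the group in B6.APP/PS1 female 2 (left) and B6 WT male 5 (right). All points lie above 0, with medians of 0.55 and 0.64, and dashed lines mark the medians of respiratory chain genes, mitochondrial ribosomal genes and all genes tested.

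Members differed in how far they rose in these libraries. Rps21, of the small subunit, reached 156 CPM in WT male 5, against 79.3 to 91.6 CPM in the other mice of its group, and lay 0.88 log2 above them. Rpl36 reached 76.3 CPM in B6.APP/PS1 female 2, against 38.2 to 46.5 CPM. Rplp1 stood at 299.5 and 288 CPM in WT male 5 and the APP/PS1 female, 0.76 and 0.72 log2 above their groups. Rps15a deviated least, by 0.28 log2 in WT male 5 (151 CPM against 119.5 to 129) and 0.17 in the APP/PS1 female. Rps6, the S6 kinase substrate, lay 0.68 and 0.61 log2 above, and Rpsa 0.60 and 0.47. Members with large or small deviations were picked here after their values were seen. Nuclear genes for respiratory chain subunits moved with the members, with a median of 0.63 log2 in WT male 5 and 0.50 in the APP/PS1 female. Mitochondrial ribosomal proteins lay 0.47 and 0.34 higher, other TOP mRNAs and translation factors 0.35 and 0.30, and ribosome biogenesis genes 0.32 and 0.25.

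Over all genes tested the same medians were 0.020 and 0.00 log2. Genes with 5 kb or more of exons, all transcripts merged, lay at -0.17 and -0.13. Genes with under 1 kb of merged exons lay at 0.077 and -0.036. Of the 84 members, 65 had an mRNA under 1 kb, but merged exons can be longer, as in Rpl21 (899 and 3400 bases). Genes matched to the members by mRNA length were not compared. Reads on genes numbered 96199967 in WT male 5 and 58258964 in B6.APP/PS1 female 2. Mitochondrial genes took 4.21% and 4.09% of counts on genes, against 4.27 to 5.22% in the other B6 libraries, and the 10 most abundant genes 5.51% and 5.75%, against 5.96 to 6.82%. On these measures both libraries lay below all other B6 libraries. The share of reads outside annotated features was 13.4% and 12.2%, against 12.7 to 16.1% in the other B6 libraries. The 5 astrocyte markers, led by Slc1a2, summed to 2582 and 2920.3 CPM, against 3468 to 4182 CPM in the other B6 mice. The 5 oligodendrocyte markers, led by Mbp, summed to 5971 CPM in WT male 5, against 4711 to 5919 CPM in the other 5 mice of its group, and to 6127 CPM in the APP/PS1 female, against 4884 to 5274 CPM in the other 3. WT female 5 had 6358 CPM, the highest of the B6 mice. The part of these measures in the members' levels was not tested.

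Among WT mice, which compare the strains without transgenes, the summed level of the members was highest in B6, at 9604 ± 1485 CPM (SD, n = 12; lowest 8384, median 9068, highest 13714). It was 8394 ± 740.4 CPM in PWK (n = 11), 8315 ± 596 in CAST (n = 12) and 7839.7 ± 393 in WSB (n = 12). The median WT B6 mouse, at 9068 CPM, lay above the highest WSB mouse at 8677 CPM, and the ranges of B6 and each other strain overlapped. In bulk tissue, fewer cells that are rich in ribosomes and less ribosomal mRNA per cell cannot be told apart. Gene by gene, the mean was highest in B6 for 63 of the 84 members and lowest in WSB for 53. PWK was highest for 11 and lowest for 13, CAST highest for 9 and lowest for 15, and WSB highest for 1. B6 was lowest for 3. By medians over the mice, B6 was highest for 52, PWK for 16, CAST for 14 and WSB for 2, and WSB lowest for 47. By means without B6 WT male 5, B6 was highest for 48 and WSB lowest for 51. The strains were not ranked in this way over all genes, so these counts do not set the members apart from other genes.

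**Figure D2:**
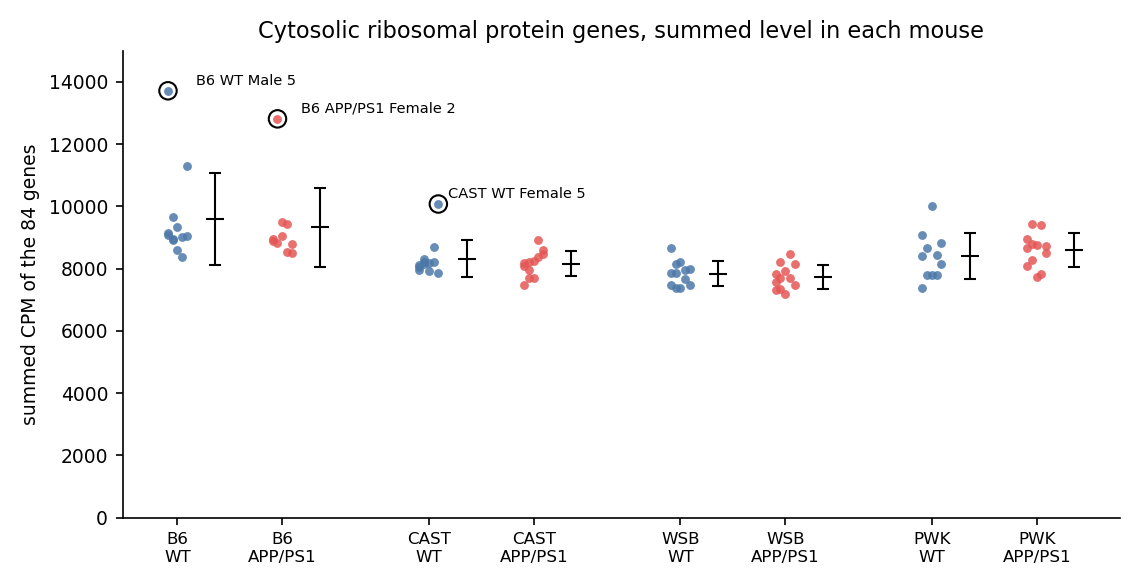
Each point is the summed CPM of the 84 genes in 1 mouse, by strain and genotype, with the mean and SD of each group. The highest points are B6 WT male 5 at 13714 CPM and B6.APP/PS1 female 2 at 12813 CPM.

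A test across the 4 WT strains (edgeR, adjusted over all 23702 genes) called 82 of 84 members at an adjusted p under 0.05, beside 84.5% of all genes. These were 30 of 31 of the small subunit, 46 of 46 of the large subunit with all 3 of the P-stalk, and 6 of 7 paralogs or other genes that share the name. The exceptions were Rps16, whose tail reaches the tRNA in the P site, with an adjusted p of 0.420, and Rps27rt with 0.0703. Without B6 WT male 5, Rps27rt passed at 0.0395 (range over all alternatives 0.0393 to 0.114). Rps16 medians were 55.9 CPM in B6, 58.6 in PWK, 56.7 in WSB and 59.0 in CAST. Rps10, near the mRNA entry of the small subunit, passed narrowly (adjusted p 0.0307) and missed with barcode run as a covariate (0.0583) and without CAST WT female 5 (0.0705, range 6.85e-06 to 0.0705). The 6 pairwise comparisons share the WT mice of each strain.

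Between WSB and B6, 74 of 84 members differed, 1 higher and 73 lower, beside 47.5% of all genes (23.2% higher and 24.3% lower). The median member difference was -0.29 log2 against 0.00 over all genes tested, with 80 of 84 below 0. All 27 small-subunit genes called of 31 were lower in WSB (median of the 31, -0.31 log2), as were 42 of 43 called of the 46 large-subunit genes (median -0.28). Of the other members, 4 of 7 were called. Without the pair of outlying B6 libraries, 73 members were called (2 higher, 71 lower, median -0.22 log2). Between CAST and B6, 58 of 84 members differed, 6 higher and 52 lower, beside 61.4% of all genes (30.3% higher and 31.1% lower). The median member difference was -0.17 log2 against 0.0027 over all genes tested, with 71 of 84 below 0. By role, 23 of 31 small-subunit genes (2 higher and 21 lower) and 30 of 46 large-subunit genes (3 higher and 27 lower) were called. Without the pair, 53 members were called (12 higher, 41 lower, median -0.10 log2). Without CAST WT female 5, 63 were called (4 higher, 59 lower, median -0.21 log2). Between PWK and B6, 59 of 84 members differed, 6 higher and 53 lower, beside 59.2% of all genes (28.8% higher and 30.4% lower). The median member difference was -0.16 log2 against -0.0040 over all genes tested, with 69 of 84 below 0. The 23 small-subunit genes called were all lower in PWK, and the 31 large-subunit genes called split into 4 higher and 27 lower. Without the pair, 53 members were called (11 higher, 42 lower, median -0.10 log2). B6 and the library series cannot be told apart in these 3 comparisons.

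**Figure D3:**
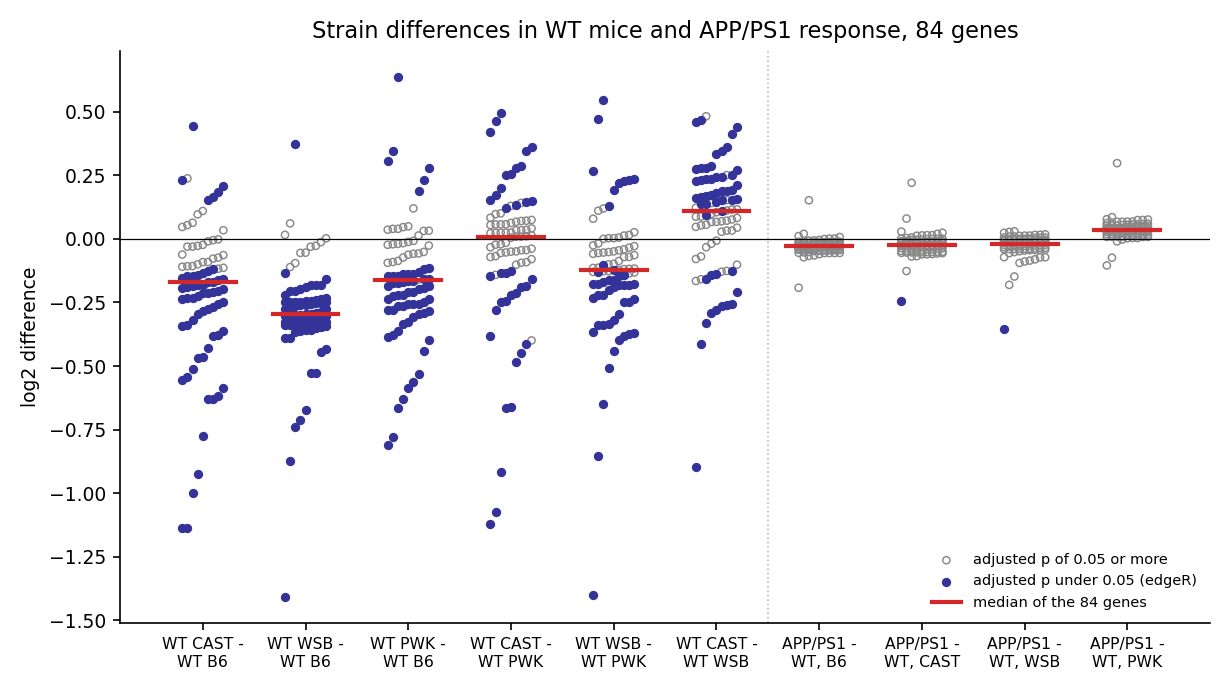
Each point is the log2 difference of 1 of the 84 genes in a comparison, filled where the edgeR adjusted p was under 0.05, with the median as a red line. Medians against B6 lie between -0.29 (WSB) and -0.16 (PWK), and between -0.030 and 0.035 for APP/PS1 within a strain.

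Among the 3 strains that shared barcode runs, WSB had the lowest summed level. Between WSB and PWK, 46 of 84 members differed, 9 higher and 37 lower, beside 54.5% of all genes (27.5% higher and 27% lower). The median member difference was -0.12 log2 against -0.0011 over all genes tested, with 66 of 84 below 0. The large subunit gave 25 lower and 1 higher of 46 genes, and the small subunit 8 lower and 6 higher of 31. Within barcode runs 1, 2 and 3 the median was 0.018, -0.19 and -0.21 log2, so it did not hold in run 1, with 7 WSB and 2 PWK mice. Between CAST and WSB, 49 of 84 members differed, 36 higher and 13 lower, beside 54.2% of all genes (27.1% higher and 27.2% lower). The median member difference was 0.11 log2 against 0.0023 over all genes tested, with 23 of 84 below 0. The small subunit (14 higher and 6 lower) and the large subunit (21 higher and 6 lower) leaned the same way. Within the runs the median was 0.052, 0.17 and 0.16. Between CAST and PWK, 37 of 84 members differed, 16 higher and 21 lower, beside 54.8% of all genes (27.8% higher and 27.1% lower). The median member difference was 0.0087 log2 against 0.0010 over all genes tested, with 40 of 84 below 0. Without CAST WT female 5, 46 members were called for CAST against WSB (28 higher, 18 lower, median 0.086 log2) and 36 for CAST against PWK (12 higher, 24 lower, median -0.028 log2). The median for CAST against PWK also varied in sign over other settings: 0.072, -0.0049 and -0.047 within runs 1, 2 and 3, -0.0043 with no count filter, -0.0010 with barcode run as a covariate, and -0.0019 and -0.0047 without PWK WT female 3 or 4. Without the outlying B6 libraries, which enter these comparisons through the fitted dispersion, 60, 59 and 42 members were called for WSB against PWK, CAST against WSB and CAST against PWK. The share of all genes called in that fit is not given, so the change cannot be read as particular to the members.

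In the small subunit, the smallest p across strains belonged to Rps15a, a protein of its body (adjusted p 1.68e-41). Rps15a ran from 116 to 151 CPM (median 126) in B6, 91.7 to 116 CPM (median 102) in PWK, 75.6 to 85.5 CPM (median 81.7) in WSB and 58.5 to 82.8 CPM (median 63.1) in CAST. Each of the CAST and WSB ranges lay below that of B6, and the highest PWK mouse lay just under the lowest B6 mouse. The difference was -1.001 ± 0.038 log2 (SE) for CAST against B6 and -0.67 ± 0.038 for CAST against PWK. Rps3a1 ran from 168 to 265 CPM (median 181) in B6, 107 to 144 CPM (median 122) in PWK, 103 to 125 CPM (median 115) in WSB and 102 to 140.3 CPM (median 109) in CAST. Rps3a1 encodes a protein near the mRNA exit, and no mouse of the other strains reached the lowest B6 mouse. WSB lay -0.74 ± 0.053 log2 from B6 (adjusted p 6.99e-22). Rpsa, the protein at the mRNA exit that is also called the laminin receptor, was lowest in PWK. Rpsa levels ran from 236 to 369 CPM (median 250.004) in B6, 133 to 178 CPM (median 149) in PWK, 196 to 231 CPM (median 209) in WSB and 150.4 to 223 CPM (median 195) in CAST. The PWK range lay below that of WSB and of B6. PWK was -0.81 ± 0.057 log2 from B6, and WSB 0.47 ± 0.057 from PWK.

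Rps18, in the head of the small subunit, was lowest in PWK. Rps18 ran from 76.4 to 132 CPM (median 86.3) in B6, 50.2 to 66.9 CPM (median 55.0) in PWK, 59.1 to 71.4 CPM (median 66.4) in WSB and 75.7 to 97.6 CPM (median 77.7) in CAST. CAST lay 0.50 ± 0.054 log2 above PWK (adjusted p 2.16e-13), and PWK -0.67 ± 0.054 from B6. Rps9, a protein of the mRNA entry channel, was lowest in CAST. Rps9 ran from 124 to 201.1 CPM (median 134) in B6, 94.5 to 124 CPM (median 106) in PWK, 114 to 138 CPM (median 121) in WSB and 85.7 to 105 CPM (median 89.97) in CAST. The CAST range lay below that of WSB, with a difference of -0.41 ± 0.047 log2. Rps15 ran from 172 to 287 CPM (median 185) in B6, 168 to 249.5 CPM (median 197) in PWK, 139 to 179.7 CPM (median 153) in WSB and 119 to 154 CPM (median 125) in CAST. The CAST median lay below those of the other 3 strains, and PWK and B6 overlapped over most of their range. Rps6 was not high in B6, with medians of 92.3 CPM in B6, 96.0 in PWK, 98.4 in WSB and 110.1 in CAST. Rps27a, made as a fusion with ubiquitin, had medians of 132, 119, 113 and 123 CPM in the same order.

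In the large subunit, Rpl41, the shortest of the ribosomal proteins, separated CAST from the other strains. Rpl41 ran from 91.2 to 165 CPM (median 101) in B6, 89.1 to 128 CPM (median 103) in PWK, 82.5 to 103 CPM (median 90.03) in WSB and 40.7 to 62.5 CPM (median 48.4) in CAST. The highest CAST mouse lay below the lowest mouse of each other strain. CAST was -1.14 ± 0.064 log2 from B6 and -1.07 ± 0.065 from PWK (adjusted p 1.19e-26). Rpl29, a protein known for binding heparin, split the strains into pairs. Rpl29 ran from 65.8 to 107 CPM (median 71.7) in B6, 66.8 to 87.9 CPM (median 72.8) in PWK, 38.6 to 45.6 CPM (median 40.9) in WSB and 29.4 to 40.3 CPM (median 34.4) in CAST. CAST and WSB lay below B6 and PWK with no overlap between the pairs. CAST was -1.14 ± 0.075 log2 from B6 and -1.12 ± 0.077 from PWK, and WSB -0.85 ± 0.076 from PWK. Rpl29 had 59 similar pseudogenes.

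Rpl5 ran from 97.0 to 144 CPM (median 104) in B6, 85.1 to 108 CPM (median 96.8) in PWK, 81.2 to 95.5 CPM (median 87.1) in WSB and 68.4 to 83.3 CPM (median 72.5) in CAST. Rpl5, which carries an rRNA to the large subunit and binds Mdm2 when ribosome assembly stalls, was lowest in CAST, overlapping WSB at the edge, and lay below B6 in each CAST mouse. Rpl35a ran from 69.8 to 124 CPM (median 76.6) in B6, 46.7 to 64.5 CPM (median 53.1) in PWK, 44.8 to 58.5 CPM (median 49.3) in WSB and 48.3 to 67.2 CPM (median 52.2) in CAST. Rpl35a, a gene mutated in Diamond-Blackfan anemia, was higher in every B6 mouse than in any CAST, WSB or PWK mouse. Rpl37a, a zinc-binding protein, differed by 0.44 ± 0.065 log2 between CAST and WSB. Rpl10a, of the mobile L1 stalk, was 0.31 ± 0.054 log2 from B6 in PWK. Rpl24 lay above B6 in all 3 strains, by 0.44 in CAST, 0.37 in WSB and 0.35 in PWK. With barcode run as a covariate, which takes out differences between runs within each series and none between the B6 series and the other, the adjusted p for Rpl24 was 0.0579 in WSB and 0.0864 in PWK, and without PWK WT female 5 it was 0.0852 in PWK. Over all alternatives it ran from 0.00749 to 0.0579 in WSB and from 0.0107 to 0.0864 in PWK.

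Of the P-stalk genes, Rplp0 lay farthest from B6 in CAST. Rplp0 ran from 118 to 189.7 CPM (median 129) in B6, 102 to 133 CPM (median 114) in PWK, 104 to 125 CPM (median 114) in WSB and 87.5 to 106 CPM (median 93.1) in CAST. Each strain overlapped B6 except CAST, whose highest mouse lay below the lowest B6 mouse. Rplp1 medians were 181 CPM in B6, 159 in PWK, 188 in WSB and 173 in CAST, and WSB lay 0.27 ± 0.069 log2 above PWK. Rplp2, added to complete the stalk after values were seen, had medians of 55.9, 52.7, 49.4 and 51.2 CPM. Against B6 the log2 differences of Rplp0, Rplp1 and Rplp2 were -0.54, -0.15 and -0.18 in CAST, -0.26, -0.028 and -0.25 in WSB, and -0.26, -0.30 and -0.19 in PWK.

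Paralogs varied in their own ways. Rpl22l1, the paralog that can take the place of Rpl22, had medians of 31.6 CPM in B6, 18.7 in PWK, 27.6 in WSB and 25.4 in CAST. PWK lay -0.78 ± 0.065 log2 from B6, and WSB 0.55 ± 0.065 above PWK. Rpl22 itself had medians of 73.6, 66.6, 60.4 and 64.1 CPM. Rpl36al, with medians of 28.9 CPM in B6, 28.6 in PWK, 25.7 in WSB and 34.6 in CAST, was highest in CAST, 0.47 ± 0.055 log2 above WSB and 0.23 ± 0.055 above B6. Its relative Rpl36a was highest in B6, with medians of 37.5 CPM in B6, 37.0 in PWK, 32.6 in WSB and 33.9 in CAST. Rpl3l, at a median of 0.310 CPM in B6, 0.270 in PWK, 0.101 in WSB and 0.141 in CAST, lay in WSB at -1.41 log2 against B6 and -1.40 against PWK. Rps27l, a paralog of Rps27 known as a p53 target, had medians of 6.46, 5.27, 6.18 and 5.42 CPM, beside 83.0, 77.9, 74.5 and 78.2 CPM for Rps27. Rps27rt was highest in PWK, 0.64 ± 0.27 log2 from B6 (adjusted p 0.0377), and WSB lay -0.65 ± 0.27 from PWK (adjusted p 0.0377). Both calls were lost when PWK WT female 1, 2 or 3 was left out, with adjusted p of 0.0512, 0.0542 and 0.0573 against B6 and 0.0508, 0.0542 and 0.0562 between WSB and PWK. Over all alternatives they ran from 0.0163 to 0.0581 and from 0.0333 to 0.0578.

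Copies elsewhere in the genome touch the members unequally. In 38 members, more than 50% of the 100-base windows of the mRNA matched another annotated gene. Of these, 21 of 38 differed between CAST and PWK, against 16 of the other 46 and 54.8% of all genes. For WSB against B6 the counts were 32 of 38 and 42 of 46, beside 47.5% of all genes. Of the similar pseudogenes, 803 were among the genes counted, whether or not they had reads. They summed to 108 CPM in WT B6, 91.8 in PWK, 147 in WSB and 123 in CAST. Reads that mapped to more than 1 place made up 9.91, 12.0, 9.71 and 12.0% in the same order. Across the 84 members, the Spearman rho of the log2 difference with the share of matching windows was 0.33 for CAST against B6, 0.25 for WSB against B6, 0.20 for PWK against B6, 0.15 for CAST against WSB, 0.087 for CAST against PWK and -0.0044 for WSB against PWK. These comparisons share WT mice. These are descriptions across genes, which share libraries and are not replicates. The part of copies in the strain differences was not tested.

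Ribosomal protein promoters are short and often start transcription in a pyrimidine run. RefSeq promoters (GRCm38.p6, 250 bases before to 50 after the start) matched 64 of the 84 members by symbol. On either strand, CTTTCC occurred in 31 of 64 members (48.4%, against 26.6% of all 32851 promoters and 26.6% of the 14407 whose gene passed the count filter). CCGGAAG, an ETS-type motif, occurred in 24 (37.5% against 8.86% and 14.5%), and AAGATGGC, a YY1-type motif, in 5 (7.81% against 2.75% and 3.79%). A match is a description and not a bound site. The 80 bases before the RefSeq start are shown for the 5 matched members with the smallest p across strains, 5′ to 3′ on the gene's strand, with CCGGAAG in capitals. They are Rps15a at chr7:118116148-118116227 (minus strand), Rpl41 at chr10:128549169-128549248 (minus strand), Rps3a1 at chr3:86142669-86142748 (minus strand), Rpsa at chr9:120127686-120127765 (plus strand) and Rpl5 at chr5:107900448-107900527 (plus strand).
Rps15a: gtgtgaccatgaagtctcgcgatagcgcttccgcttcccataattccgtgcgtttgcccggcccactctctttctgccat
Rpl41: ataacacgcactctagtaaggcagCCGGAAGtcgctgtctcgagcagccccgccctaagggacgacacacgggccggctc
Rps3a1: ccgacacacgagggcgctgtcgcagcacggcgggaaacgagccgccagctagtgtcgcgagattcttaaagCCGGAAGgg
Rpsa: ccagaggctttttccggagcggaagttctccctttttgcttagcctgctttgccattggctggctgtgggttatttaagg
Rpl5: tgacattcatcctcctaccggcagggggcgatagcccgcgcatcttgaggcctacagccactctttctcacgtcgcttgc

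Genes of translation and of the respiratory chain were set beside the members as lists. For WSB against B6, 67 of 79 nuclear genes of the respiratory chain (1 higher and 66 lower, median -0.21 log2) and 53 of 77 mitochondrial ribosomal protein genes (6 higher and 47 lower, median -0.13) were called. Translation factors and other TOP mRNAs gave 14 of 15 (1 higher and 13 lower, median -0.13), ribosome biogenesis genes 13 of 20 (1 higher and 12 lower, median -0.12), and the ribosome's partner genes 2 of 3. The members' median was -0.29 log2, and 47.5% of all genes were called. For CAST against B6 the respiratory chain gave 61 of 79 (6 higher and 55 lower), beside 61.4% of all genes. The mitochondrial ribosome gave 49 of 77 (10 higher and 39 lower). For PWK against B6 they gave 39 of 79 (9 higher and 30 lower) and 44 of 77 (16 higher and 28 lower). Of all genes, 59.2% were called there. Among strains that shared barcode runs, the respiratory chain gave 6 higher and 37 lower for CAST against PWK. It gave 4 higher and 43 lower for WSB against PWK, and 16 higher and 14 lower for CAST against WSB. Medians were -0.10, -0.14 and 0.034 log2, with -0.066, -0.072 and 0.0024 for the mitochondrial ribosome and 0.0087, -0.12 and 0.11 for the members. In the same order, 54.8%, 54.5% and 54.2% of all genes were called.

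Cell type markers also differed between strains. Oligodendrocyte markers (5 of 5 past the filter, Mbp most abundant) summed to 5430.4 CPM in WT B6, 3676 in PWK, 3762 in WSB and 3604 in CAST, highest in B6 like most members. Astrocyte markers (5 of 5 past the filter, Slc1a2 most abundant) summed to 3639.7 CPM in WT B6, 3918 in PWK, 3371 in WSB and 4120.1 in CAST, lowest in WSB. Neuron markers (6 of 6 past the filter, Snap25 most abundant) summed to 5383 CPM in WT B6, 5525 in PWK, 5498 in WSB and 5275 in CAST. Endothelial markers (5 of 5 past the filter, Flt1 most abundant) summed to 222 CPM in WT B6, 188 in PWK, 169 in WSB and 164 in CAST. The lowest of these genes lay at -9.74 log2 in WSB against B6, where the median of the 5 was -0.44. Microglia markers (5 of 5 past the filter, Csf1r most abundant) summed to 209.9 CPM in WT B6, 207 in PWK, 189 in WSB and 194 in CAST. Those of tissue next to the brain and of blood follow. Choroid plexus markers (5 of 5 past the filter, Ttr most abundant) summed to 475 CPM in WT B6, 377 in PWK, 466 in WSB and 457 in CAST. Erythroid markers (5 of 5 past the filter, Hbb-bs most abundant) summed to 35.4 CPM in WT B6, 47.4 in PWK, 22.0 in WSB and 28.8 in CAST. The lowest erythroid difference was -5.08 log2 in WSB and -4.63 in CAST against PWK, where the medians were -0.48 and -0.15. Pituitary markers (5 of 5 past the filter) had a median sum of 3.30 CPM in WT B6, 3.43 in PWK, 3.51 in WSB and 2.47 in CAST. Tshb was most abundant of them in B6, PWK and WSB, and Prl in CAST. In CAST WT female 6 the 5 pituitary markers summed to 95.8 CPM. No marker gene was at 0 in any group. The part of cell composition in the members' strain differences was not tested.

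Within each strain, APP/PS1 mice were compared with their WT littermates for the response to the transgenes. The summed level of the members was 9328 ± 1267 CPM in B6.APP/PS1 (SD, n = 10), 8601 ± 548 in PWK.APP/PS1, 7736 ± 395 in WSB.APP/PS1 and 8164 ± 413 in CAST.APP/PS1 (each n = 12). Each mean lay within 1 SD of its WT mean. In B6, 0 of 84 members were called by edgeR, beside 0.224% of all genes (0.215% higher and 0.00844% lower), with 0 at an unadjusted p under 0.05 and 0 by DESeq2. The median was -0.030 log2 against -0.0036 over all genes, and turned to 0.037 without B6 WT male 5. It was -0.11 without B6.APP/PS1 female 2 and -0.043 without both. In PWK, 0 of 84 were called, beside 2.04% of all genes (1.57% higher and 0.468% lower), with 0 at an unadjusted p under 0.05 and 0 by DESeq2. The median there was 0.035 log2 against -0.0045, with 80 of 84 differences above 0. In the other strains most differences were below 0, with 78 of 84 in B6, 68 in WSB and 71 in CAST. Genes of 1 library share its level, so these counts are not separate observations. The medians were smaller than the spread between mice of a group in the summed level (0.123 log2). The CAST median turned to 0.0061 log2 without CAST WT female 5.

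Differences of the 84 members ran from -0.19 to 0.15 log2 in B6, -0.10 to 0.30 in PWK, -0.35 to 0.030 in WSB and -0.24 to 0.22 in CAST. The members with the smallest p in B6 were Rpl30 (-0.073 log2), Rpl15 (-0.044) and Rpl13 (-0.067), all of the large subunit and with edgeR adjusted p of 1.00. In PWK they were Rpl15 (0.057 log2), Rpl10 (0.074), which helps to form the P site, and Rpl23 (0.077). In WSB, Rpl14 lay at -0.089 log2 with an adjusted p of 0.602, and Rpl22l1 at -0.086. In CAST, Rpl13 lay at -0.058 and Rpl28 at -0.056. None of these passed the test.

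In CAST, 1 of 84 members was called, beside 0.658% of all genes (0.544% higher and 0.114% lower), with a median of -0.024 log2 against -0.0034 over all genes. The median turned to 0.0061 without CAST WT female 5. The member called was Rpsa (ENSMUSG00000032518, chr9:120127689-120132369, GRCm38). The 12 CAST.APP/PS1 mice had 139, 143, 146, 150.4, 152, 152, 152, 155, 163, 184, 201.2 and 203 CPM. The 12 WT CAST mice ran from 150.4 to 223 CPM (median 195). Of these, female 3 and male 4 had 150.4 and 154.9 CPM, and the others 184 CPM or more. The APP/PS1 mice also fell into a lower set, up to 163 CPM, and a higher set from 184 CPM. The higher set was male 3, male 5 and male 6 (201.2, 203 and 184 CPM), and the females ran from 139 to 155 CPM. The test averaged the sexes, and a difference between them in this response was not tested. The groups overlapped, with 3 APP/PS1 mice below the lowest WT mouse and 10 of 12 below the WT median. Rpsa fell by 0.24 log2 (SE 0.055, edgeR adjusted p 0.00746), with a range of 2.94e-04 to 0.0452 for that p over all alternatives. In the other strains its difference was -0.014 ± 0.058 in B6, 0.015 ± 0.055 in WSB and 0.040 ± 0.057 in PWK.

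In WSB, 1 of 84 members was called, beside 0.375% of all genes (0.308% higher and 0.0675% lower), with a median of -0.018 log2 against 0.00. It was Rpl29 (ENSMUSG00000048758, chr9:106429454-106431568). The 12 WSB.APP/PS1 mice had 23.9, 24.7, 26.0, 26.4, 27.2, 27.2, 34.4, 36.3, 37.5, 38.1, 42.6 and 43.9 CPM. The WT mice ran from 38.6 to 45.6 CPM (median 40.9), and 10 of 12 APP/PS1 mice lay below the lowest of them. The lower 6 APP/PS1 mice lay between 23.9 and 27.2 CPM, apart from the other 6, which had 34.4 CPM or more. Rpl29 fell by 0.35 log2 (SE 0.075, edgeR adjusted p 0.00473), with an adjusted p of 0.0533 in a model of WSB mice alone and a range of 4.29e-04 to 0.0533 over all alternatives. CAST.APP/PS1 mice fell into 9 from 30.1 to 35.2 CPM and 3 males at 46.9, 47.1 and 49.2 CPM, above the highest WT CAST mouse at 40.3 CPM. The Rpl29 difference was 0.080 ± 0.075 log2 in CAST, -0.032 ± 0.078 in B6 and 0.018 ± 0.075 in PWK.

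**Figure D4:**
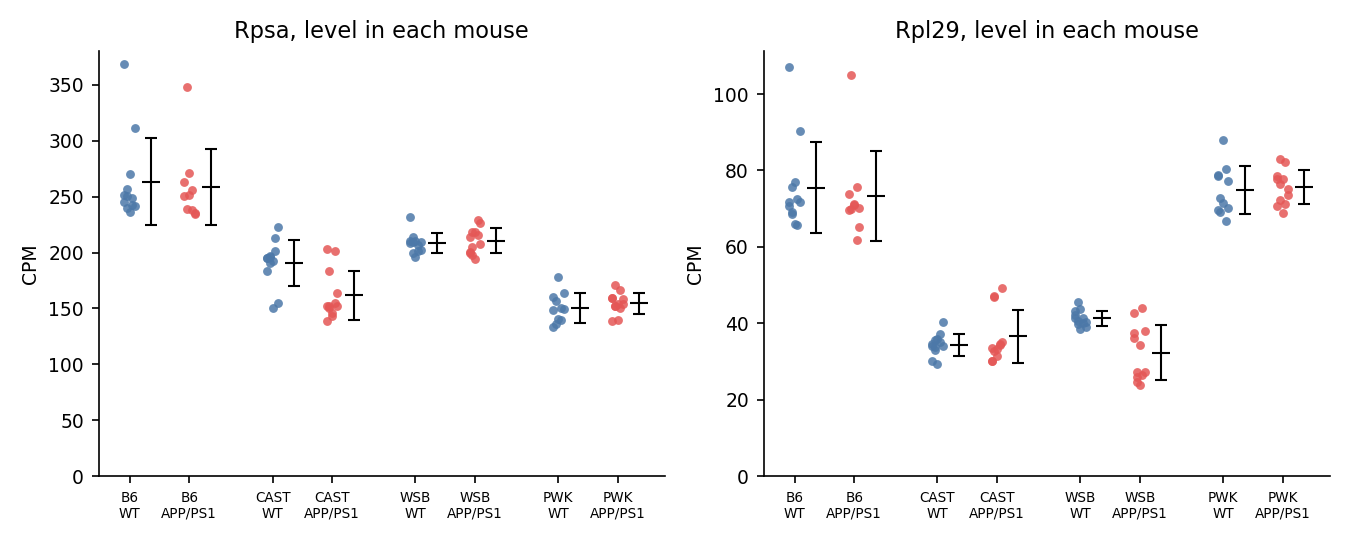
Each point is the CPM of Rpsa (left) or Rpl29 (right) in 1 mouse, by strain and genotype, with the mean and SD of each group. CAST.APP/PS1 mice overlap WT CAST mice for Rpsa, and 10 of 12 WSB.APP/PS1 mice lie below all WT WSB mice for Rpl29.

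Markers of other cells were also compared between the genotypes. Microglia markers summed to 233 CPM in B6.APP/PS1 against 209.9 in WT, 249.2 against 207 in PWK, 211 against 189 in WSB and 228 against 194 in CAST. In each strain 3 of the 5 genes were called higher. Of the 5 astrocyte markers, 1 was called higher in each strain. The 5 differences were above 0 for 5 in WSB (median 0.069 log2), 3 in B6 (0.049), 2 in PWK (-0.047) and 1 in CAST (-0.034). Their sum was 3584 CPM in WSB.APP/PS1 against 3371 in WT, 3862 against 3639.7 in B6, 3998 against 3918 in PWK and 4148 against 4120.1 in CAST. Oligodendrocyte markers summed to 3395 CPM in PWK.APP/PS1 against 3676 in WT, 5267 against 5430.4 in B6, 3954 against 3762 in WSB and 3442 against 3604 in CAST, with 5 of 5 differences below 0 in PWK and CAST, 4 in B6 and 0 in WSB. Erythroid markers were below 0 for 5 of 5 in PWK and CAST and above 0 for 5 of 5 in B6 and WSB. Choroid plexus markers were below 0 for 5 of 5 in B6 and PWK, 4 in CAST and 3 in WSB. The smallest edgeR adjusted p was 0.303 for oligodendrocyte, 0.105 for neuron, 0.257 for endothelial, 0.481 for erythroid and 0.586 for choroid plexus markers, each in PWK. Pituitary markers averaged 63.0 CPM in B6.APP/PS1 against 3.61 in WT, and 61.8 against 3.75 in WSB, with 2 and 3 of 5 genes called. Single mice carried these means, B6.APP/PS1 male 6 at 528 CPM and WSB.APP/PS1 male 2 at 646 CPM, with group medians of 3.64 and 4.17. In PWK and CAST, where the APP/PS1 means were 3.604 and 2.65 CPM, the WT means were 4.66 and 11.3. The part of these markers in the members' APP/PS1 values, Rpsa and Rpl29 included, was not tested.

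Whether the response differs among strains was tested by the interaction of genotype and strain. By edgeR 0 of 84 members were called, beside 0.473% of all genes, with 2 at an unadjusted p under 0.05 and 1 by DESeq2. These were Rpl29, with an edgeR adjusted p of 0.0805 and 0.0493 by DESeq2, and Rpsa, with 0.154. Without B6 WT male 5, both passed, at 0.0254 for Rpl29 and 0.0300 for Rpsa. Without B6.APP/PS1 female 2, Rpl29 passed at 0.0430. Without both libraries the values were 0.0161 and 0.0245. Over all alternatives the adjusted p ran from 0.0161 to 0.196 for Rpl29 and from 0.0245 to 0.272 for Rpsa. Averaged over strains, 0 of 84 were called by edgeR beside 2.27% of all genes (1.8% higher and 0.468% lower), with 0 at an unadjusted p under 0.05 and 0 by DESeq2. The median was -0.010 log2 against -0.0042 over all genes, and 0.0065 without B6 WT male 5.

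Rpl29 and Rpsa both lie on chromosome 9, with 8 members there in all, and the following counts were made after that was seen. The other 6, Rpl14, Rpl4, Rplp1, Rps25, Rps27l and Rps27rt, were not called in any strain. Within 10 Mb of Rpsa, 18 of 176 genes were called in CAST (10.2%, against 0.658% of all genes). In the same region, 17 were called in PWK (9.66%), 8 in WSB (4.55%) and 3 in B6 (1.70%). Rpsa itself was not called in these strains. Within 10 Mb of Rpl29, 9 of 318 were called in WSB (2.83%) and 46 in PWK (14.5%). In CAST 6 (1.89%) and in B6 2 (0.629%) were called. Of all genes, 0.375% were called in WSB, 2.04% in PWK, 0.658% in CAST and 0.224% in B6. Chromosome 9 held 41 of the 112 genes called for the interaction (36.6%), and 1277 of the 23702 genes tested. The part of B6 sequence near the transgenes in these differences was not tested.

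For APP/PS1, respiratory chain genes had medians of -0.034 log2 in B6, -0.0063 in PWK, -0.017 in WSB and -0.032 in CAST, and mitochondrial ribosomal protein genes -0.012, 0.0076, -0.0083 and -0.0055. Females and males were compared over all strains and genotypes. Of the 84 members, 0 differed by edgeR, beside 1.77% of all genes (1.03% higher and 0.738% lower), with 1 at an unadjusted p under 0.05 and 0 by DESeq2. That member was Rpl7l1, a large-subunit assembly factor related to Rpl7, at 0.045 log2 in females against males (adjusted p 0.215). Rpl36al lay at 0.042 and Rps26 at 0.042. The members' median was 0.013 log2 against -0.0001 over all genes, and -0.0085 without B6.APP/PS1 female 2.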

How the data were processed

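RNA from 93 left hemispheres had been selected for polyA and sequenced as paired reads. Per the submitters' processing notes, reads were trimmed with Trimmomatic, aligned with STAR and counted per gene with HTSeq, and each deposited file gives 1 raw count per gene. Per the study's methods, genomes with the variants of CAST, PWK and WSB were used for those strains. The members and the lists set beside them were chosen with earlier results of these data known.

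Genes common to all files (47643) were matched to GENCODE M21, and 23702 with at least 10 counts in at least 10% of the mice were tested. Counts were scaled by TMM and fitted in edgeR 4.0.16 (R 4.3.3, limma 3.58.1) with a quasi-likelihood model of 16 means for strain, genotype and sex, and contrasts averaged over the sexes. P-values were adjusted over all genes tested by Benjamini and Hochberg, and an adjusted p under 0.05 counted as called. DESeq2 1.42.0 served as the other test. Levels are CPM on TMM-scaled totals, and SE is that of the log2 difference. Similar copies were searched with blastn among GENCODE M21 transcripts. Library measures and figures used Python 3.11.15, numpy 2.4.6, pandas 2.3.3, scipy 1.17.1 and matplotlib 3.10.9. The fit was tested on simulated data. A library's deviation was taken from the mean of the other mice of its group, and Dixon's ratio was applied in each of the 16 groups.

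Named members were the 10 smallest and 3 largest p among strains, the 3 largest called differences each way in each pair of strains, the smallest p for APP/PS1, interaction and sex, the 3 most and 3 least abundant per length, paralogs with their partners, and Rps6, Rpsa, Rplp0 and Rps27a. Alternatives were DESeq2 size factors, the DESeq2 test, no count filter, barcode run as a covariate, replicate number as a block, a model of each strain alone, values within barcode runs, leaving out each mouse of the groups of 4 and 5, and leaving out both outlying B6 libraries. Leaving out B6 WT male 5 or CAST WT female 5 alone, and ranking the strains by medians, were chosen after seeing the data.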

Additional observations from a re-analysis of the deposited data

Results flagged for a closer look

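The summed level of the ribosomal protein genes in B6.APP/PS1 female 2 (12813 CPM, highest of 4), B6 WT male 5 (13714 CPM, highest of 6) and CAST WT female 5 (10077 CPM, highest of 6) lay farther from the other mice of the group than Dixon's limit allows. The median log2 deviation of the 84 genes passed the same limit in B6.APP/PS1 female 2 (0.55) and B6 WT male 5 (0.64). With 16 groups examined, chance picks out about 1 in 20 groups. The 2 B6 libraries were known beforehand, from earlier results of these data, to stand apart. The cause was not tested.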

How the results depend on the processing

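Of the counts of ribosomal protein genes, 243 values under alternatives lay within 1.5 times the reported count, and 5 did not. Shares of all genes called are given for the main fit only. In a model of WSB mice alone, APP/PS1 in WSB gave 0 members, as the adjusted p of Rpl29 rose to 0.0533 with fewer mice. The interaction of APP/PS1 and strain gave 1 member by DESeq2 and 2 without both outlying B6 libraries, and from 0 to 2 when 1 mouse was left out. It gave 1 without B6.APP/PS1 female 2 and 2 without B6 WT male 5. The cause was not tested.

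Of the values of single genes, 1095 kept direction and side of the threshold, 8 came to pass it, 14 no longer passed and 0 reversed. Sign changes of the members' median stand beside each comparison, and WSB against PWK within barcode run 1 was the value that moved by more than the spread of single mice (0.123 log2), a limit as large as some of the medians. Mice of different groups with 1 replicate number share only that number. With replicate number as a block, 82 members differed among WT strains, 37, 46, 50, 58, 74 and 59 between CAST and PWK, WSB and PWK, CAST and WSB, and CAST, WSB and PWK against B6, and 0, 1, 1 and 0 for APP/PS1 in B6, CAST, WSB and PWK. The outlying B6 libraries numbered 2 under each of 3 scalings of CPM. Depth limits mostly Rpl24, Rpl3l and Rps27rt, the members with the fewest counts.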
